A study of Mus musculus with 27 samples.

Results

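The genes described here were 43 imprinted genes of the mouse, taken by symbol from a list of genes known to be read from a single parental copy and grouped into 17 clusters or loci. All 43 were found among the 23279 genes of the table, and 40 of them passed the filter on low values and were tested together with 14438 genes in all. By the allele known to be read, 24 were classed as paternally expressed and 17 as maternally expressed. Another 2, Gnas and Trappc9, were classed as depending on the tissue. Imprinting of some others, such as Grb10 and Ddc, also depends on the tissue, and the classes were not checked in the tissues used here. RNA-seq had been run on 27 libraries of 9 groups with 3 libraries each. Forelimb-like and hindlimb-like mesenchyme, ES-FLB and ES-HLB, together called ES-LB, came from mouse embryonic stem cells of the line EB5 Hand2::GFP +/-, which carries a fluorescent reporter at 1 copy of Hand2. These stem cells were kept in medium with LIF and 2i, aggregated, given BMP4 and Matrigel, and directed with retinoic acid to the forelimb type or with a retinoic acid antagonist to the hindlimb type. On day 9 the Hand2::GFP positive mesenchyme was sorted by FACS. Embryonic groups came from Slc:ICR embryos and were forelimb buds (FLB) and hindlimb buds (HLB) of an early stage, labelled E10.0, and of E10.5, together with 3 other E10.5 tissues, tail bud (TB), branchial arch (BA) and cardiac tissue (Ca), for which no sort is named. Strain, culture and sorting therefore go together in every comparison of ES-LB with the embryo and cannot be told apart. All ES-LB libraries came from a single cell line.

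Genomic imprinting is the expression of a gene from only the copy inherited from the mother or only the one from the father. The choice is set by DNA methylation that is laid down at imprinting control regions in the germ line and kept in the body's cells, and genes under 1 control region lie side by side, with protein-coding genes and long non-coding RNAs often read from opposite alleles. Many of these genes act on growth of the fetus and placenta, and their transcripts are abundant in the mesoderm of the mid-gestation embryo. The table counts RNA per gene without regard to allele, so that no value below measures imprinting itself. In these pieces of tissue, fewer cells of a type and less RNA per cell cannot be told apart either.

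Several of the non-coding members are hosts of microRNAs, short RNAs that bind messages through the seed, bases 2 to 8, and these sequences show what lies inside the transcripts whose levels differed. Mature sequences below are from RefSeq (GRCm38.p6), written 5′ to 3′ with the seed in capitals. 8 members held 45 mature sequences with 44 seeds on their own strand, 26 of them in Mirg, and all but 1 seed occurred once. The reads of a host transcript do not measure the mature microRNA. The first pair below lies in H19, at chr7:142577112-142577133 and chr7:142577078-142577099, and the second in Igf2. miR-335-5p lies in Mest, miR-770-5p in Meg3 and miR-370-3p in Rian. miR-453 and miR-496a-5p lie in Mirg and were the 2 that shared a seed. The last 2, miR-127-3p at chr12:109592888-109592909 and miR-433-3p at chr12:109591781-109591802, are among 11 mature sequences on the strand opposite to Rtl1 and inside its span, and by position are fully complementary to it.
mmu-miR-675-5p: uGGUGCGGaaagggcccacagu
mmu-miR-675-3p: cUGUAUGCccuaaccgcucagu
mmu-miR-483-5p: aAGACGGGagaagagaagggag
mmu-miR-483-3p: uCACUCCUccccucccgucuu
mmu-miR-335-5p: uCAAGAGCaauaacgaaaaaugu
mmu-miR-770-5p: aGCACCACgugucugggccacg
mmu-miR-370-3p: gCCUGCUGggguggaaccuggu
mmu-miR-453: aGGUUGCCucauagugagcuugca
mmu-miR-496a-5p: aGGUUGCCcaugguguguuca
mmu-miR-127-3p: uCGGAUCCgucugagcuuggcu
mmu-miR-433-3p: aUCAUGAUgggcuccucggugu

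Promoter sequence was in the RefSeq table (GRCm38.p6) for 33 of the 43 genes, with 52 start sites. Over the 250 bases before each start, the members' promoters held a median of 8 CpG dinucleotides, the unit that DNA methylation marks, against 6 over all 32851 promoters. The letters TGCCGC, searched on both strands as the core of the site bound by the imprint-keeping factor Zfp57, were in 5 promoters of 4 members (Meg3, Mest, Plagl1 and Zim1), which is 9.62% against 8.68% of all promoters. The share of promoters with these letters was thus near that of all genes. Shown here, with every CpG in capitals, are both promoters of Grb10, the member with the largest difference between ES-LB and limb buds, then 1 promoter of Mest, which was also lower in ES-LB, and 1 of Meg3, which was higher. The upstream promoter of Grb10 held 40 CpG, its downstream promoter 8, the promoter of Mest 14 and that of Meg3 10.
Grb10, chr11:12037421-12037670, minus strand: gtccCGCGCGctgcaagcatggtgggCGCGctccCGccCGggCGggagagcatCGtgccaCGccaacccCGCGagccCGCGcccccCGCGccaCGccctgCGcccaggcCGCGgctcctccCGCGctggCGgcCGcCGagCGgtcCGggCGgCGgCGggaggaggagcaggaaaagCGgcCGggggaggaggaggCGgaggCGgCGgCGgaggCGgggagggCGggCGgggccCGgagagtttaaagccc
Grb10, chr11:12027972-12028221, minus strand: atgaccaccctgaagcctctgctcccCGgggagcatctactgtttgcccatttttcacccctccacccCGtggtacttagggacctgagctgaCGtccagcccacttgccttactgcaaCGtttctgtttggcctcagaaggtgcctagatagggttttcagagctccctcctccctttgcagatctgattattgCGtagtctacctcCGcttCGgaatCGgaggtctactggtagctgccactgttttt
Mest, chr6:30737800-30738049, plus strand: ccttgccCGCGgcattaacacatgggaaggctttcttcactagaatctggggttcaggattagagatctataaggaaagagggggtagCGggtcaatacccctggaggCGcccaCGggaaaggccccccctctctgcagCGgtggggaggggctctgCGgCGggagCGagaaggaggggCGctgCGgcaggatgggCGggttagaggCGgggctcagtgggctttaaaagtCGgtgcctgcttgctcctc
Meg3, chr12:109540746-109540995, plus strand: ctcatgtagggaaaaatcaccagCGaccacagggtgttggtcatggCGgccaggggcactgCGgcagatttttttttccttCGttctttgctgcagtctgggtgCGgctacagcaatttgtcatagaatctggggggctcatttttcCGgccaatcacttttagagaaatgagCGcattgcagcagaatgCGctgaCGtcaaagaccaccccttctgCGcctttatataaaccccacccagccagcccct

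Levels are given as scaled CPM, which is the deposited CPM (read counts relative to the library's total) divided by a scaling factor of the library. The libraries held about 5543746 to 22142313 reads as read from the steps of the deposited values, and 3 reads corresponded to 0.148 to 0.543 scaled CPM, taken as the floor of detection. Intervals and floors cover counting error only. Replicate 2 of the E10.5 HLBs was left out of all results because genes on several chromosomes, those of 24 of the 43 members included, have no values in it, which leaves 26 libraries. Nothing in the labels says that replicates came from separate cultures or litters, so that p-values measure the spread between these libraries, which may be technical. Over 5 limb mesenchyme markers the summed level was 689.5 to 1028 in ES-LB and 539.3 to 1261 in limb buds. Markers of other cell types moved with the comparison of ES-LB and limb buds: the 5 erythroid markers summed to 5.24 to 159.5 in ES-LB and 2211 to 6490 in limb buds, the 4 endothelial markers to 20.8 to 37.46 and 231.1 to 320.6, the 4 epithelial markers to 51.43 to 105.8 and 144.6 to 315.7, and the 3 muscle precursor markers to 0.731 to 2.71 and 5.53 to 35.4. In the other direction, the 3 pluripotency markers summed to 8.70 to 51.1 in ES-LB and 0.181 to 1.71 in limb buds, the 4 endoderm markers to 52.2 to 73.1 and 3.65 to 11.5, and the 3 neuronal markers to 33.9 to 47.7 and 8.995 to 19. The 3 neural crest and glial markers lay at 5.47 to 8.02 in ES-LB and 1.45 to 8.37 in limb buds, and the 2 macrophage markers at 0 to 1.02 and 0.155 to 6.84. Of all these markers only Fcgr1 of macrophages was listed at 0 in every ES-LB library, with Myf5 of muscle precursors at 0 in every ES-HLB library. The part of these cell types in the results below was not tested.

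Against limb buds, ES-LB carried far less RNA of Igf2, Grb10, Mest, Dlk1 and Asb4 and more of the non-coding RNAs Meg3, Rian, Mirg and Kcnq1ot1. Other members went the other way: protein-coding genes such as Peg3, Zim1, Igf2r and Peg10 were higher, and the non-coding RNA Peg13 was lower. Each value of this comparison is the mean of both ES-LB groups minus the mean of the 4 limb bud groups on the log2 scale, after adding 0.5 to the scaled CPM, with limma and p-values adjusted over all genes tested. Of the 40 members tested, 23 were higher and 13 lower in ES-LB at an adjusted p below 0.05, and 4 (Ppp1r9a, Ddc, Gnas and Nnat) did not pass. Over all genes tested, 42.2% were higher and 40.2% lower, so that being called was common in this comparison. With a further limit of 2-fold, 15 members were higher and 9 lower, where 14.2% of all genes were higher and 7.22% lower. The median size of the difference, regardless of direction, was 1.17 for the members and 0.486 for all genes tested. The members were chosen with earlier results of these data known, so that these medians do not test imprinted genes as a class. For the list of further imprinted genes described at the end, the median size was 0.517. Among members classed as paternally expressed 14 of 23 were higher and 7 lower. Among those classed as maternally expressed 8 of 15 were higher and 6 lower, so that both directions occurred in both classes. In 21 members every one of the 6 ES-LB libraries lay above all 11 limb bud libraries, and in 11 every one lay below, where 21.4% and 22.1% of all genes tested did so. Set against all 20 embryonic libraries, 15 members lay wholly above and 9 wholly below, with 12.0% and 11.4% over all genes tested.

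**Figure D1:**
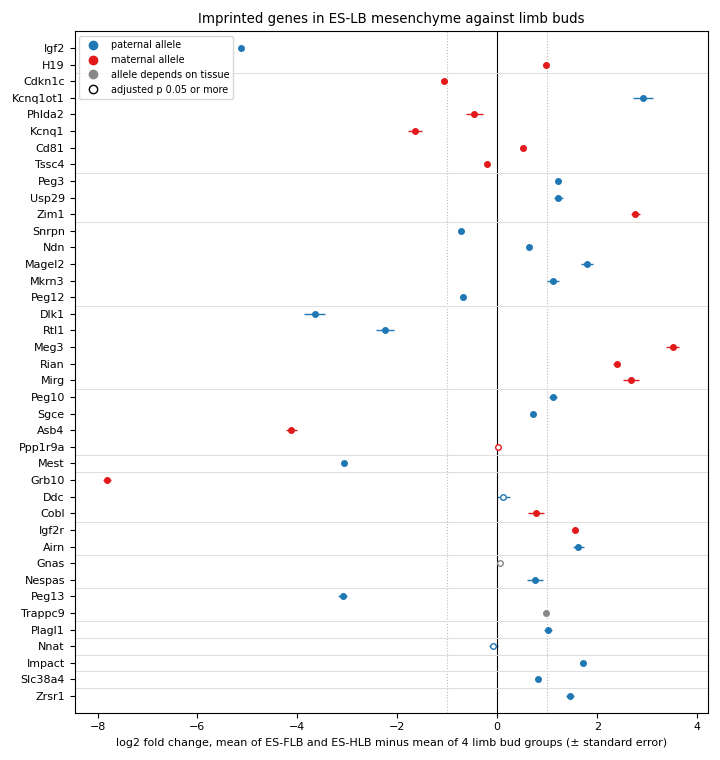
Log2 fold change of the 40 members tested, mean of both ES-LB groups minus mean of the 4 limb bud groups, as points with their standard error, coloured by the allele known to be expressed and ordered by cluster (grey lines separate clusters, dotted lines mark 2-fold). Grb10 at -7.81 and Igf2 at -5.13 lie farthest to the left and Meg3 at 3.51 farthest to the right, and members of both alleles stand on both sides of 0.

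Igf2 and H19 share a control region on distal chromosome 7 (chr7:142575530-142666816, mm10) and are read from opposite alleles. Igf2, the paternally expressed insulin-like growth factor that drives fetal growth, measured 131, 111 and 117 scaled CPM in ES-FLB and 108, 96.7 and 97.96 in ES-HLB. The 11 limb bud libraries held 3325 at the lowest, 3651 at the median and 4633 at the highest. All ES-LB libraries thus lay far below every embryonic library, the lowest of which was TB at 1318, and the log2 difference from limb buds was -5.13 ± 0.05 (adjusted p = 6.36e-25). H19, the maternally expressed non-coding RNA that hosts miR-675, was higher in culture, at 11577, 11156 and 11134 in ES-FLB and 12193, 11041 and 11919 in ES-HLB. Limb buds held 5606 at the lowest, 5797 at the median and 6217 at the highest. No ES-LB library overlapped a limb bud library, and the difference was 0.98 ± 0.03 (adjusted p = 6.23e-16). Cardiac tissue came nearest to ES-LB for H19, with 10989.9, 10109.8 and 9948, and was at the same time the group with the most Igf2, at 7254, 6417 and 6730.2. High H19 in ES-LB stood beside the lowest Igf2 of the 9 groups, whereas in Ca both genes were high.

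The Kcnq1 cluster (chr7:142966822-143503145) holds maternally expressed protein-coding genes and Kcnq1ot1, the paternally expressed non-coding RNA that silences them in cis. Of the 6 members tested here, 2 were higher and 4 lower in ES-LB. Kcnq1ot1 measured 68.8, 55.5 and 52.2 in ES-FLB and 53.6, 106 and 45.9 in ES-HLB, against 4.74 at the lowest, 6.96 at the median and 17.1 at the highest in limb buds. Every ES-LB library was above every embryonic one, and the difference was 2.91 ± 0.19 (adjusted p = 4.67e-11). Cdkn1c, an inhibitor of cyclin-dependent kinases that limits growth, held 155, 146 and 142 in ES-FLB and 91.1, 82.03 and 94.2 in ES-HLB. Its limb bud level changed with stage: early FLBs held 139, 145 and 149.8 and early HLBs 172, 143 and 162, while E10.5 FLBs held 501, 489 and 526 and E10.5 HLBs 271 and 298. The pooled difference was -1.06 ± 0.05 (adjusted p = 1.57e-16), but ES-FLB and early FLB overlapped, with a difference of 0.03 ± 0.08 that did not pass. Kcnq1, which encodes a cardiac potassium channel, was listed at 0 in 5 of 6 ES-LB libraries and at the equivalent of 1 read in the last. Limb buds held 0.549 at the lowest, 1.07 at the median and 1.59 at the highest, all above the floor, with about 161 reads in all. Corrected for depth, the limb buds' share of reads was 52.3 times that of ES-LB, with an exact 95% interval of 9.26 to 2080.0 from counting alone. Cd81, a tetraspanin of the cell surface, held 141 to 160.0 in ES-LB and 97.7 to 125 in limb buds, a difference of 0.52 ± 0.04 (adjusted p = 8.64e-15) with no overlap. Tssc4, a factor of spliceosome assembly, differed little, at 43.9 to 52.7 in ES-LB and 52.9 to 60.1 in limb buds, and its difference of -0.20 (adjusted p = 2.48e-05) was lost with the CPM as deposited (-0.07, adjusted p = 0.126). Phlda2, which restrains placental growth, was low throughout, at 0.608, 0.26 and 1.097 in ES-FLB, 1.53, 1.57 and 2.395 in ES-HLB and 0.331 to 7.86 in limb buds, with replicate 2 of ES-FLB under the floor. Its pooled difference of -0.46 (adjusted p = 0.0172) did not hold without replicate 2 of ES-FLB (-0.32, adjusted p = 0.0981), and it was -2.65 against early FLBs and 1.29 against E10.5 HLBs. Slc22a18, a membrane transporter, and Ascl2, a transcription factor of the placenta, did not pass the filter, with highest values of 1.27 and 0.683 over all libraries.

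In the Peg3 cluster (chr7:6674444-6967220) all 3 members were higher in ES-LB. Peg3, a paternally expressed zinc-finger gene, measured 2867, 2896 and 2741 in ES-FLB and 3684, 3565 and 3599 in ES-HLB, against 1107 at the lowest, 1388 at the median and 1788 at the highest in limb buds. Its difference was 1.22 ± 0.05 (adjusted p = 3.1e-14). Zim1, the maternally expressed zinc-finger gene beside it, held 224, 201 and 194 in ES-FLB and 290.2, 341 and 286 in ES-HLB, and 27.3 at the lowest, 35.1 at the median and 59.6 at the highest in limb buds. That difference was larger, at 2.76 ± 0.09 (adjusted p = 3.61e-16). Usp29, paternally expressed and related to ubiquitin-specific proteases, held 27.5, 31.2 and 29.4 in ES-FLB and 40.4, 38.2 and 32.6 in ES-HLB, and 9.94 at the lowest, 13.9 at the median and 15.8 at the highest in limb buds, a difference of 1.22 ± 0.09 (adjusted p = 3.34e-14). For each of the 3 genes all ES-LB libraries lay above all 20 embryonic libraries.

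Members of the Snrpn region (chr7:59982495-62464510), the mouse counterpart of the human Prader-Willi region, are all paternally expressed, and their differences went in both directions, 3 higher and 2 lower. Magel2, a MAGE family regulator of ubiquitin ligases, held 16.8, 15.7 and 12.3 in ES-FLB and 21.7, 22.1 and 19.5 in ES-HLB, and 2.27 at the lowest, 4.74 at the median and 9.94 at the highest in limb buds. The difference was 1.80 ± 0.12 (adjusted p = 2.76e-14), yet the highest group was BA, at 56.8, 59.8 and 66.5. Mkrn3, a makorin RING-finger protein, held 11.3, 12.6 and 11.8 in ES-FLB and 10.6, 11.5 and 9.82 in ES-HLB against 3.799 at the lowest, 4.69 at the median and 6.88 at the highest in limb buds, a difference of 1.11 ± 0.12 (adjusted p = 5.84e-10). Ndn, the MAGE protein necdin, was higher by 0.63 (adjusted p = 1.24e-15), at 146 to 164 in ES-LB and 88.5 to 108 in limb buds, and was highest in BA at 196, 193 and 210.3. Snrpn, a protein of the splicing machinery, was lower at 19.4 to 30.2 against 31.01 to 56.2, a difference of -0.73 (adjusted p = 8.04e-13). Peg12, related to the FRAT proteins of Wnt signalling, was lower at 28.6 to 38.4 against 49.7 to 56.7, with a difference of -0.69 (adjusted p = 1.42e-14). The 2 neighbours that were lower thus stood within the same region as 3 that were higher. Snrpn shares 9601 bases with Snurf on its own strand, so that its reads cannot be separated from those of Snurf.

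**Figure D2:**
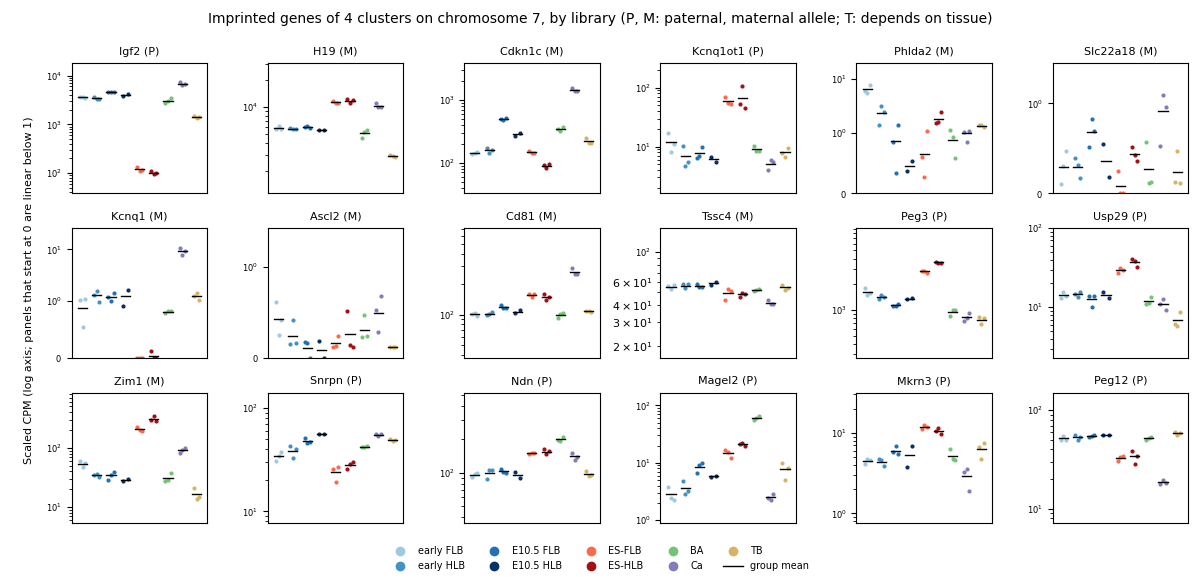
Scaled CPM of the 18 members of 4 clusters on chromosome 7 in each of 26 libraries, as points coloured by group with a bar at the group mean, on log axes (linear below 1 where a panel starts at 0). Igf2 drops to 96.7 to 131 in ES-LB while H19 lies at 11041 or more there, and Kcnq1ot1, Peg3, Usp29 and Zim1 lie above all embryonic groups.

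The Dlk1-Meg3 cluster (chr12:109452485-109749458) split by allele: both paternally expressed protein-coding genes were lower in ES-LB and all 3 maternally expressed non-coding RNAs were higher, each by 2-fold or more in all 4 matched comparisons given further on. Dlk1, a membrane protein that resembles Notch ligands, held 22.4, 21.04 and 19.5 in ES-FLB and 24.01, 18.1 and 22.5 in ES-HLB. Limb buds held 146 at the lowest, 358 at the median and 585 at the highest, and no library overlapped. The difference was -3.65 ± 0.21 (adjusted p = 7.61e-12). Rtl1, a gene derived from a retrotransposon and needed for placental vessels, was listed at 0 in 3 of 6 ES-LB libraries and at or under the floor in 5, with about 5 reads in all and levels of 0.365, 0 and 0.122 in ES-FLB and 0, 0.142 and 0 in ES-HLB. Limb buds held 1.03 at the lowest, 2.29 at the median and 4.57 at the highest, with about 455 reads in all. Corrected for depth the limb buds' share was 29.6 times that of ES-LB, with an exact 95% interval of 12.6 to 91.6.

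Meg3, the first of the non-coding RNAs of the maternal allele, held 1282, 1028 and 969.9 in ES-FLB and 1003, 1297 and 989 in ES-HLB. Limb buds held 46.3 at the lowest, 110.0 at the median and 165 at the highest, so that the means differed by 10.6 times and the log2 difference was 3.51 ± 0.13 (adjusted p = 9.5e-15). Rian, which carries small nucleolar RNAs and the microRNAs of the miR-370 group, held 1479, 1423 and 1324 in ES-FLB and 1232, 1273 and 1259 in ES-HLB, against 166 at the lowest, 284 at the median and 422 at the highest in limb buds. Its difference was 2.39 ± 0.07 (adjusted p = 3.99e-16). Mirg, the host of 26 of the mature sequences, held 62.4, 59.3 and 52.9 in ES-FLB and 51.1, 53.3 and 46.9 in ES-HLB, against 5.29 at the lowest, 8.996 at the median and 12.5 at the highest in limb buds, a difference of 2.67 ± 0.16 (adjusted p = 2.77e-12). All 6 ES-LB libraries lay above the 20 embryonic libraries for the 3 RNAs and below them for Dlk1 and Rtl1.

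The Peg10-Sgce cluster (chr6:4674350-5433022) held neighbours that went in both directions. Peg10, a paternally expressed gene derived from a retrotransposon and needed for the placenta, measured 3594, 3739 and 3435 in ES-FLB and 4819.5, 4691 and 4673 in ES-HLB, against 1391 at the lowest, 1894 at the median and 2768 at the highest in limb buds. This was a difference of 1.11 ± 0.08 (adjusted p = 4.5e-10), and Peg10 was also above all embryonic libraries. Sgce, the paternally expressed epsilon-sarcoglycan, was higher by 0.72 (adjusted p = 1.97e-15), at 56.1, 53.5 and 60.2 in ES-FLB and 57.3, 57.5 and 53.9 in ES-HLB against 22.6 at the lowest, 34.2 at the median and 50.3 at the highest in limb buds. Asb4, a maternally expressed subunit of a ubiquitin ligase, was lower in ES-LB than in every embryonic library, at 30.3, 31.7 and 27.2 in ES-FLB and 24.9, 28.5 and 25.1 in ES-HLB. Limb buds held 267 at the lowest, 457 at the median and 699 at the highest and were its highest groups. The difference was -4.12 ± 0.10 (adjusted p = 1.95e-17). Ppp1r9a, a regulator of protein phosphatase 1 also called neurabin, held 71.3 to 103 in ES-LB and 61.9 to 126 in limb buds, and its difference of 0.01 ± 0.06 (adjusted p = 0.839) did not pass. Elsewhere on chromosome 6, Mest (chr6:30733506-30748466), a paternally expressed hydrolase-like protein of the mesoderm, held 399, 385 and 348 in ES-FLB and 541, 495 and 507 in ES-HLB. Limb buds held 2858 at the lowest, 3923 at the median and 4077 at the highest and the difference was -3.06 ± 0.03 (adjusted p = 2.46e-27), with no overlap with any embryonic library.

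Grb10 (chr11:11930499-12037428), an adaptor protein that holds back insulin receptor signalling and growth, showed the largest difference of all members. It measured 11.7, 6.88 and 10.7 in ES-FLB and 4.47, 4.700 and 4.91 in ES-HLB. Limb buds held 1395 at the lowest, 1600.2 at the median and 1787 at the highest, and the 9 libraries of BA, Ca and TB lay at 1725 or more. Limb bud means were 224 times those of ES-LB, and the log2 difference was -7.81 ± 0.07 (adjusted p = 4.22e-24). Its reads in ES-LB were low but above the floor in all 6 libraries. Grb10 is maternally expressed outside the brain and paternally expressed in neurons from other starts, and the table does not separate its promoters. Its neighbours did not share this difference. Cobl, which encodes an actin nucleator, held 1.15 to 4.14 in ES-LB and 0.529 to 5.22 in limb buds, a difference of 0.77 ± 0.16 (adjusted p = 5.89e-05) with overlapping libraries. Ddc, the decarboxylase of dopamine and serotonin synthesis and imprinted in the heart, held 3.83 to 7.402 and 3.06 to 8.58, with a difference of 0.12 ± 0.13 (adjusted p = 0.403) that did not pass.

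Igf2r, the maternally expressed receptor that takes up and degrades Igf2 (chr17:12682406-12769706), held 942, 911 and 883 in ES-FLB and 722, 694 and 718 in ES-HLB, against 206 at the lowest, 255 at the median and 416 at the highest in limb buds. The difference was 1.56 ± 0.06 (adjusted p = 1.02e-14). Airn, the paternally expressed non-coding RNA that runs against Igf2r and silences it in cis, was higher as well, at 22.4, 19.9 and 18.3 in ES-FLB and 13.7, 17.5 and 11.5 in ES-HLB, against 3.799 at the lowest, 5.11 at the median and 8.19 at the highest. Its difference of 1.62 ± 0.11 (adjusted p = 2.55e-15) was close to that of Igf2r. The 2 genes share 28354 bases on opposite strands. The strand setting of the deposited counts is not given, so that their reads could be exchanged. In the Gnas locus (chr2:174281237-174346744) the signalling subunit gene Gnas held 1344, 1339 and 1297 in ES-FLB, 1449.9, 1311 and 1421 in ES-HLB and 1102 at the lowest, 1276 at the median and 1531 at the highest in limb buds, with a difference of 0.05 ± 0.02 (adjusted p = 0.0618) that passed the test with the median-of-ratios scaling (0.07, adjusted p = 0.0145) and with the CPM as deposited (0.19, adjusted p = 2.62e-08). Nespas, the non-coding RNA antisense to it, was low at 1.34, 2.34 and 1.58 in ES-FLB, 2.81, 3.13 and 2.04 in ES-HLB and 0.353 at the lowest, 1.198 at the median and 1.91 at the highest in limb buds, a difference of 0.76 ± 0.16 (adjusted p = 5.13e-05) with overlapping libraries.

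Peg13 and Trappc9 (chr15:72589620-73061238) moved in opposite directions. Peg13, a paternally expressed non-coding RNA within an intron of Trappc9, held 2.55, 1.95 and 1.95 in ES-FLB and 1.66, 1.71 and 2.87 in ES-HLB, against 16.6 at the lowest, 21.8 at the median and 28.4 at the highest in limb buds. Its difference was -3.09 ± 0.09 (adjusted p = 2.07e-24), with every ES-LB library below every embryonic one. Trappc9, a subunit of the TRAPP trafficking complex with a maternal bias in brain, held 49.99, 48.6 and 48.6 in ES-FLB and 45.6, 49.1 and 47.4 in ES-HLB, against 17.1 at the lowest, 22.2 at the median and 33.1 at the highest, a difference of 0.97 ± 0.05 (adjusted p = 3.6e-17). Both lie on 1 strand, so that reads from the 4725 shared bases could belong to either.

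The remaining loci held 1 member each, all paternally expressed. Impact, a regulator of translation under amino acid stress, held 192, 213 and 212 in ES-FLB and 194, 210.5 and 220.2 in ES-HLB, against 44.3 at the lowest, 62.5 at the median and 88.2 at the highest in limb buds, a difference of 1.71 ± 0.04 (adjusted p = 7.97e-26). Zrsr1, a splicing factor of retrotransposed origin within Commd1, held 29.4, 29.6 and 34.00 in ES-FLB and 29.1, 32.9 and 31.98 in ES-HLB, against 8.21 at the lowest, 11.6 at the median and 13.4 at the highest, a difference of 1.46 ± 0.08 (adjusted p = 1.24e-17). Neither gene overlapped any embryonic library. Plagl1, a zinc-finger factor that restrains cell cycle progression, held 256, 278 and 244 in ES-FLB and 186, 183 and 203 in ES-HLB, against 79.9 at the lowest, 109 at the median and 171 at the highest, with a difference of 1.02 ± 0.09 (adjusted p = 2.72e-09). Slc38a4, an amino acid transporter, was higher by 0.81 (adjusted p = 9.75e-14), at 356, 338 and 336 in ES-FLB and 385, 360.3 and 373 in ES-HLB against 141 at the lowest, 194 at the median and 297 at the highest in limb buds. Nnat, the small membrane protein neuronatin, held 525, 575 and 524 in ES-FLB and 636, 598 and 639 in ES-HLB against 277 at the lowest, 721 at the median and 871 at the highest in limb buds, and its difference of -0.08 ± 0.09 (adjusted p = 0.435) did not pass. Rasgrf1, a Ras exchange factor of neurons, did not pass the filter and was at or under the floor in 25 of 26 libraries.

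**Figure D3:**
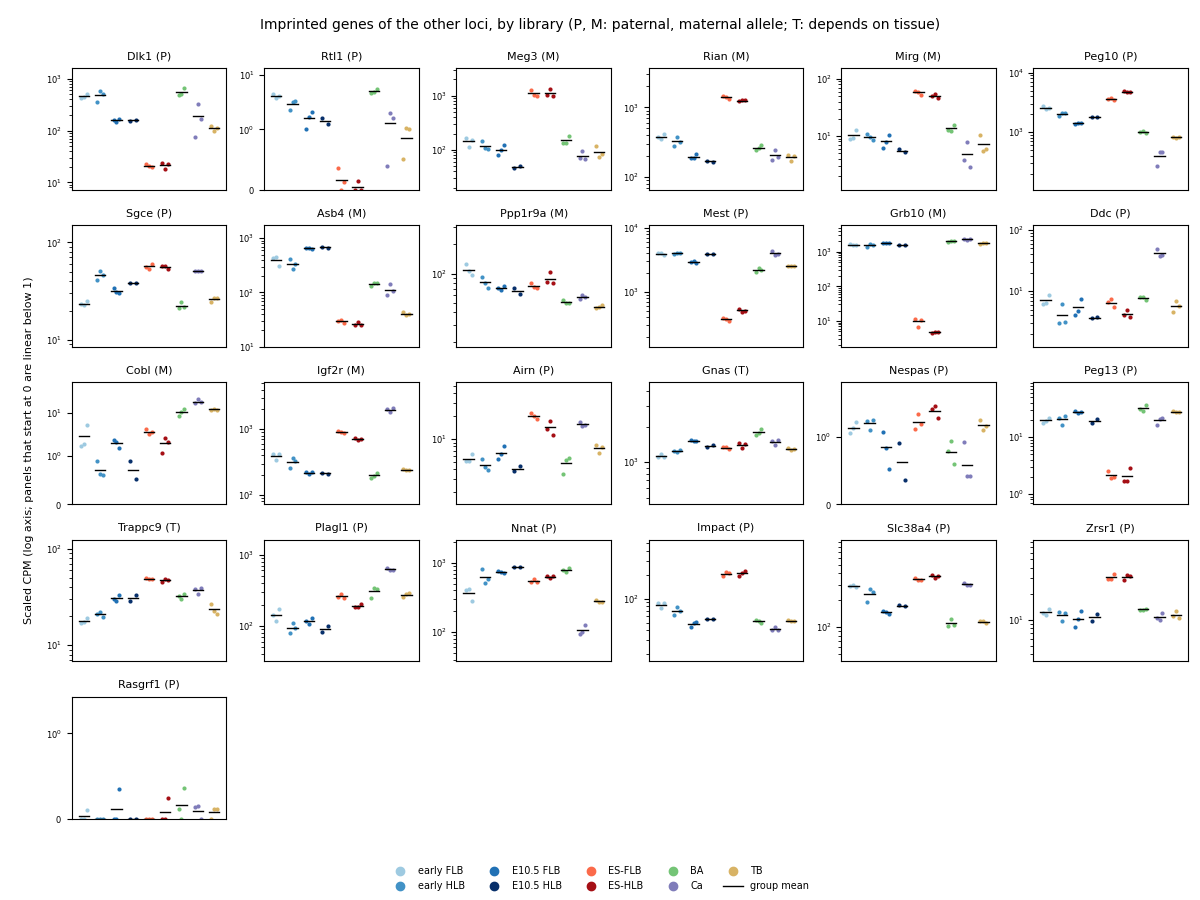
Scaled CPM of the 25 members of the other loci in each of 26 libraries, as points coloured by group with a bar at the group mean, on log axes (linear below 1 where a panel starts at 0). Grb10 lies at 4.47 to 11.7 in ES-LB and at 1395 or more in every embryonic library, Meg3 at 969.9 or more in ES-LB and at 179 or less elsewhere.

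Pairs of neighbours read from opposite alleles were set against each other as a log2 ratio within each library, with 0.5 added to both levels and no test. The size of a ratio depends on transcript lengths, so that only its difference between groups is read. The ratio of Meg3 to Dlk1 lay at 5.36 to 6.13 in the 6 ES-LB libraries and at -2.41 to -0.06 in the 20 embryonic libraries, and the means of ES-LB and limb buds differed by 7.16. H19 over Igf2 lay at 6.46 to 6.92 in ES-LB and at 0.36 to 1.14 in the embryo, a difference of 6.11 from limb buds. Over embryonic tissues as unlike as heart and tail bud the ratio of H19 to Igf2 thus spanned less than 1 log2 unit. Cdkn1c over Kcnq1ot1 moved the other way, at -0.36 to 1.44 in ES-LB and 2.99 to 8.43 in the embryo, with a difference of -3.97 from limb buds. Zim1 over Peg3 was 1.54 higher in ES-LB than in limb buds, at -3.84 to -3.39, while Ca stood at -3.20 to -3.12. Igf2r over Airn did not separate: ES-LB lay at 5.27 to 5.90 and limb buds at 4.68 to 6.23, with a difference of -0.06 that took the other sign, 0.16, when 2 was added in place of 0.5.

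**Figure D4:**
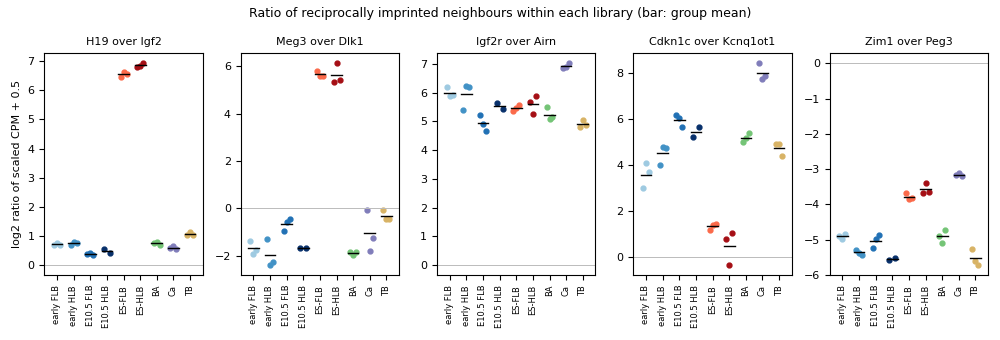
Log2 ratio of 5 pairs of reciprocally imprinted neighbours in each library, by group, with bars at the group means. ES-LB stands apart from all embryonic groups for H19 over Igf2, Meg3 over Dlk1 and Cdkn1c over Kcnq1ot1, and falls within the limb bud range for Igf2r over Airn.

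Each ES-LB type was also compared with the bud it is meant to resemble at both stages. These 4 comparisons share their ES-LB libraries in pairs and are given side by side. Against early FLBs, 23 members were higher and 13 lower in ES-FLB, with 38.9% and 38.0% over all genes. Against early HLBs, 24 were higher and 12 lower in ES-HLB, with 38.5% and 36.8% over all genes. Against E10.5 FLBs, 23 were higher and 14 lower in ES-FLB, with 33.9% and 34.9%, and against E10.5 HLBs, 25 were higher and 13 lower in ES-HLB, with 35.3% and 33.4%. In all 4, 21 members were higher and 11 lower, 10 of the former and 8 of the latter by 2-fold or more each time on the scale after adding 0.5. Over all genes tested 23.3% were higher and 24.0% lower in all 4, and 7.35% and 3.27% by 2-fold or more. The 8 were Igf2, Kcnq1, Dlk1, Rtl1, Asb4, Mest, Grb10 and Peg13, and the 10 were Kcnq1ot1, Usp29, Zim1, Meg3, Rian, Mirg, Igf2r, Airn, Impact and Zrsr1. Grb10 differed by -7.32, -8.22, -7.46 and -8.24 in the order above. Meg3 differed by 2.93, 3.19, 3.44 and 4.48. Directions changed with the bud for Phlda2, Ppp1r9a, Gnas and Nnat. Nnat was 0.59 against early FLBs and -0.44 against E10.5 FLBs. Gnas was 0.23 against early FLBs and -0.20 against E10.5 FLBs.

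Limb type was compared between ES-HLB and ES-FLB and between hindlimb and forelimb buds. In culture 12 members were called, 5 higher and 7 lower in ES-HLB, against 19.9% of all genes in either direction. On the scale after adding 0.5, Phlda2 alone differed by over 2-fold, at 1.06 ± 0.28 (adjusted p = 0.00596), with levels near the floor in ES-FLB. Grb10 was lower in ES-HLB by 0.95 (adjusted p = 8.92e-06), with 4.47, 4.700 and 4.91 there and 11.7, 6.88 and 10.7 in ES-FLB. At these low levels the added 0.5 makes the difference smaller, so that Grb10 lay close to the 2-fold limit. Cdkn1c was lower by 0.73 (adjusted p = 9.62e-08) and Cobl by 0.79 (adjusted p = 0.0255). Airn, Plagl1, Igf2r and Igf2 were lower by 0.51, 0.44, 0.36 and 0.25, and Zim1, Mest, Peg10 and Peg3 higher by 0.56, 0.45, 0.40 and 0.35. Markers of other cells also differed between ES-FLB and ES-HLB: erythroid markers lay at 5.24 to 7.92 and 84.8 to 159.5, pluripotency markers at 8.70 to 12.65 and 36.66 to 51.14, endothelial markers at 20.8 to 24.15 and 33.05 to 37.46 and epithelial markers at 51.43 to 87.74 and 96.69 to 105.8. Endoderm markers overlapped as a sum, although Afp among them had a mean of 47.2 in ES-FLB and 13.04 in ES-HLB. The part of these cells was not tested. Without replicate 1 of ES-FLB 6 members were called, and without replicate 2 of ES-HLB 7 were. Grb10, Cdkn1c, Mest and Peg3 passed whichever of the 6 ES-LB libraries was left out. Phlda2 did not pass without replicate 2 of ES-FLB (0.79, adjusted p = 0.0698), Zim1 not without replicate 2 of ES-HLB (0.48, adjusted p = 0.0569), and Igf2r not without replicate 1 of ES-FLB (-0.34, adjusted p = 0.0538) or replicate 2 of ES-HLB (-0.34, adjusted p = 0.0536). Peg10 did not pass without any 1 of the 6, and Cobl, Airn, Plagl1 and Igf2 each failed without several of them, the lowest adjusted p among these being 0.0504.

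The labels give 1 age for both early buds, but the study's text gives the early HLBs a later age than the early FLBs, so that limb type and stage cannot be told apart in them. In early buds 12 members differed between HLBs and FLBs, 3 higher and 9 lower in HLBs, against 18.9% of all genes. Cobl (-1.38 ± 0.26, adjusted p = 0.000176) and Phlda2 (-1.35 ± 0.28, adjusted p = 0.000572) were the lower ones by over 2-fold, while Sgce, Nnat and Gnas were higher in HLBs, Sgce the most, at 0.95 ± 0.08 (adjusted p = 3.43e-11). Sgce held 40.9, 50.3 and 46.7 in early HLBs and 23.2, 22.6 and 24.96 in early FLBs, without overlap. Igf2r and Impact did not pass without replicate 1 or 3 of the FLBs or replicate 1 of the HLBs (values of -0.26 to -0.16), nor Ddc without replicate 3 of the FLBs or replicate 1 or 3 of the HLBs (-0.63 to -0.61), Gnas without replicate 3 of either (0.12) or Slc38a4 without replicate 1 of the HLBs (-0.17), and the other 7 passed in all 6 such fits. The limb mesenchyme markers summed to 539.3 to 590.3 in early FLBs and 858.7 to 964.6 in early HLBs, and the macrophage markers to 0.155 to 0.409 and 2.17 to 3.33. At E10.5 9 members differed, 3 higher and 6 lower in HLBs, against 20.9%. The muscle precursor markers there lay at 29.26 to 35.38 in FLBs and 14.63 to 15.74 in HLBs, and their part was not tested. Cobl was at -1.06 ± 0.29 (adjusted p = 0.00799) and Meg3 at -1.04 ± 0.23 (adjusted p = 0.00428). Meg3 held 46.3 and 50.3 in the 2 E10.5 HLB libraries and 81.95, 98.9 and 123 in the E10.5 FLBs. Cobl did not pass without replicate 3 of the HLBs (-0.84, adjusted p = 0.121), nor Meg3 without replicate 1 of the HLBs (-0.98, adjusted p = 0.0519). The count at E10.5 fell to 4 without replicate 3 of the FLBs, to 3 without replicate 1 of the HLBs and to 5 without replicate 3 of the HLBs.

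Whether the limb type difference itself differed between culture and early buds was tested as an interaction. 10 members passed, 7 with a higher and 3 with a lower value in culture, against 20.1% of all genes. Phlda2 was 1.06 in culture and -1.35 in buds, a difference between them of 2.41 ± 0.39 (adjusted p = 3.02e-05). Zim1 was 0.56 and -0.64, a difference of 1.21 ± 0.21 (adjusted p = 0.000385). Sgce was -0.01 in culture and 0.95 in buds, a difference of -0.95 ± 0.11 (adjusted p = 5.68e-08). Grb10 and Cdkn1c were lower in ES-HLB than in ES-FLB and near equal in early buds, with differences of -0.90 ± 0.17 (adjusted p = 0.000712) and -0.86 ± 0.11 (adjusted p = 2.21e-06). Peg10, Ppp1r9a, Peg3, Slc38a4 and Mest passed with differences of 0.74, 0.67, 0.54, 0.42 and 0.42. The value in early buds holds the age difference as well as limb type. Of the 10 members 9, all but Grb10, also changed between early and E10.5 FLBs, where 59.1% of all genes did. Both comparisons use the same early FLB libraries, so that this overlap is not independent, and directions were not compared.

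**Figure D5:**
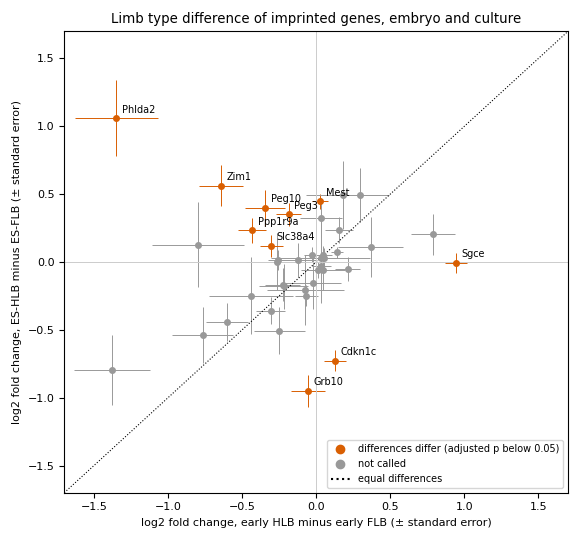
Log2 fold change between hindlimb and forelimb types for the 40 members tested, in early buds (x axis) and in culture (y axis), with standard errors and a dotted line where both are equal. The 10 members whose differences differed at an adjusted p below 0.05 are in orange and named, with Phlda2 at -1.35 and 1.06 farthest from the line.

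By the study's text the early HLBs were older than the early FLBs, so that the interval to E10.5 was shorter in HLBs. Libraries of early buds held about 19642257 to 22142313 reads and those of E10.5 buds used here about 5543746 to 5908858. Stage and depth therefore cannot be told apart. Between the early stage and E10.5, FLBs changed in 24 members, 11 higher and 13 lower, against 59.1% of all genes. HLBs changed in 17, 7 higher and 10 lower, against 28.9%, and in 11 without replicate 3 of the E10.5 HLBs. In FLBs the muscle precursor markers lay at 5.53 to 12.32 at the early stage and 29.26 to 35.38 at E10.5, the epithelial markers at 245.4 to 315.7 and 144.6 to 154.9, and the macrophage markers at 0.155 to 0.409 and 5.799 to 6.844. In HLBs the same 3 sums lay at 5.88 to 11.94 and 14.63 to 15.74, at 196.5 to 244.2 and 146.4 to 162.4, and at 2.17 to 3.33 and 4.16 to 5.11. Their part in the changes was not tested. Cdkn1c rose by 1.80 in FLBs (adjusted p = 6.96e-16) and by 0.84 in HLBs (adjusted p = 6.93e-08). Magel2 rose by 1.46 in FLBs (adjusted p = 2.24e-07), and Asb4 by 0.75 in FLBs (adjusted p = 0.000842) and 1.03 in HLBs (adjusted p = 0.000415). Dlk1 fell by 1.54 in FLBs (adjusted p = 0.000659) and by 1.59 in HLBs (adjusted p = 0.00368), from 432, 444 and 517 in early FLBs to 161, 146 and 169. Rian and Meg3, read from the other allele of that cluster, fell too, Rian by 0.96 in FLBs and 0.94 in HLBs and Meg3 by 1.29 in HLBs (adjusted p = 0.000419). The fall of Meg3 in FLBs of 0.51 (adjusted p = 0.0454) did not pass without replicate 1 or 2 of the E10.5 FLBs or replicate 1 or 3 of the early FLBs, with values of -0.50 to -0.37. Phlda2 fell by 2.43 and 1.53, and Rtl1 fell by 1.17 in FLBs (adjusted p = 0.0007). Dlk1 and the RNAs Meg3 and Rian were thus all lower in E10.5 than in early HLBs. Between limb buds and ES-LB, Dlk1 and these RNAs differed in opposite directions.

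Among tissues of E10.5, Ca had the most members called against FLBs, 29, with 17 higher and 12 lower, against 74.7% of all genes. Igf2r held 2012, 1839 and 2068 in Ca and 221, 206 and 222 in E10.5 FLBs, a difference of 3.19 ± 0.10 (adjusted p = 4.12e-16). Cobl, Ddc, Kcnq1 and Plagl1 were higher by 2.88, 2.86, 2.51 and 2.40. Ddc held 48.4, 37.6 and 39.6 in Ca and 4.11, 4.804 and 7.495 in FLBs, and Kcnq1 10.4, 7.75 and 9.43 and 1.198, 0.994 and 1.39. Cdkn1c was higher by 1.51, at 1564, 1392 and 1384. Nnat was lower by 2.78 (adjusted p = 5.31e-12), at 94.3, 101 and 126 against 752, 726 and 721. Asb4 was lower by 2.58 and Peg10 by 1.88. The heart markers summed to 8629 to 10380 in Ca, with erythroid markers at 22960 to 33550 and endoderm markers at 41.6 to 1511.0, so that the libraries labelled cardiac also held other cells, in unequal amounts. Dlk1 varied among them, at 73.4, 327 and 167.

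In BA 20 members were called, 9 higher and 11 lower than in FLBs, against 20.8% of all genes. The neuronal markers summed to 31.26 to 154.2 in the 3 BA libraries and 14.08 to 19 in FLBs, and the neural crest and glial markers to 8.51 to 31.04 and 7.70 to 8.37, and their part was not tested. Magel2 was 56.8, 59.8 and 66.5 in BA and 6.67, 9.28 and 9.94 in FLBs, a difference of 2.77 ± 0.20 (adjusted p = 2.73e-12). Cobl, Dlk1, Rtl1 and Plagl1 were higher by 2.12, 1.79, 1.42 and 1.36, and Ndn by 0.95. Asb4 was lower, at -2.20 (adjusted p = 1.18e-08). In TB 19 were called, 3 higher and 16 lower, against 45.7%. In TB the muscle precursor markers lay at 90.55 to 103.1, the neural crest and glial markers at 31.48 to 36.07, the neuronal markers at 25.16 to 42.71 and the erythroid markers at 5558 to 6441, the last against 2679 to 3849 in FLBs, and their part was not tested. Asb4 held 43.2, 38.9 and 40.6 in TB against 667, 671 and 636 in FLBs, a difference of -3.99 ± 0.17 (adjusted p = 7.04e-13), which brought the tail bud near the ES-LB range of 24.9 to 31.7. Igf2, Nnat, Cdkn1c, Zim1 and H19 were lower in TB by 1.73, 1.39, 1.18, 1.07 and 1.06, and Cobl and Plagl1 higher by 2.30 and 1.21. H19 and Igf2 were both at their lowest embryonic level in TB. The 3 comparisons share the E10.5 FLB libraries.

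A list of 18 factors that set, read or erase imprints was examined beside the members in the comparison of ES-LB with limb buds. 12 were higher and 5 lower in ES-LB, where 42.2% and 40.2% of all genes tested were, with a median of 0.24 against 0.02 over all genes tested. Zfp57, the zinc-finger protein that holds methylation at imprinting control regions, was higher by 1.35 (adjusted p = 9.35e-14), at 109.5 ± 11.3 (SD, n = 3) in ES-FLB and 33.98 ± 2.49 in early FLBs. Means of Zfp57 were 95.35 in ES-HLB, 38.42 in early HLBs, 54.42 in E10.5 FLBs, 35.15 in E10.5 HLBs and 68.74 in BA. Trim28, the cofactor of Zfp57, named like Dnmt1 below after the values were seen, was lower by 0.45. Dnmt3l, the cofactor of new methylation in germ cells, was higher by 2.60 (adjusted p = 4.01e-18), at 1.04 ± 0.184 in ES-FLB, 6.04 ± 0.266 in ES-HLB and 0.034 ± 0.03 in early FLBs. Dppa3, which protects methylation in the zygote, was higher by 1.75 (adjusted p = 4.41e-13) and Tet2, which oxidises methylated cytosine, by 1.55 (adjusted p = 2.07e-18). Levels of Dppa3 were low, at 0.487 to 0.779 in ES-FLB, 1.44 to 2.85 in ES-HLB and 0 to 0.0545 in limb buds. Limb buds held 0 to 0.166 of Dnmt3l. The sizes of the differences of Dppa3 and Dnmt3l therefore depend on the 0.5 that was added. Uhrf1, which brings Dnmt1 to newly copied DNA, was lower at -1.06 ± 0.02 (adjusted p = 4.6e-28), with 245 ± 3.12 in ES-FLB and 589.6 ± 7.05 in early FLBs. Means of Uhrf1 were 263 in ES-HLB, 580 in early HLBs, 438 in E10.5 FLBs and 525 in E10.5 HLBs. Ca, at 263, was as low as ES-HLB, so that a low level was not particular to ES-LB. Dnmt1 itself differed by -0.05 (adjusted p = 0.0452). Dppa3 and Dnmt3l are also genes of pluripotent cells, whose markers were higher in ES-LB.

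A second list held 38 further genes reported as imprinted, some in single tissues only, of which 36 were in the table and 31 were tested. In ES-LB 15 were higher and 9 lower than in limb buds, with a median of 0.16 against 0.02 over all genes tested. The share of the list called, 77.4%, was below the 82.4% of all genes. Dcn, the matrix proteoglycan decorin, was higher by 4.99 (adjusted p = 6.05e-14), Qpct by 3.27 (adjusted p = 1.2e-20), Sfmbt2 by 2.34 (adjusted p = 5.29e-18) and Klf14 by 1.97 (adjusted p = 5.01e-12). Tnfrsf23 and Zdbf2 were higher by 1.43 and 1.22. Pon2, Th and Pon3 were lower, at -1.98, -1.19 and -1.12. Th was low throughout, at 0 to 0.142 in ES-LB and 0.353 to 1.14 in limb buds. Pon2 and Pon3 lie in the same region of chromosome 6 as Asb4, which was also lower. The same region holds Peg10 and Sgce, which were higher, and Ppp1r9a, which did not pass. Several further genes overlap members on the opposite strand, and the strand setting of the deposited counts is not given in the sources used here, so that their reads could be exchanged. Of 3 such partners named after their values were seen, Commd1, around Zrsr1, was lower by 0.98 where Zrsr1 was higher, Copg2, beside Mest, was higher by 0.24 where Mest was lower, and Blcap, around Nnat, was higher by 0.18. For Kcnq1 and Kcnq1ot1, which share 93092 bases, the 2 members likewise differed in opposite directions. Igf2r and Airn, which share 28354 bases on opposite strands, were both higher. Whether reads were exchanged was not tested.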

How the data were processed

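Total RNA of 27 libraries was measured by RNA-seq. Per the labels and the submitters' processing notes, the authors used FastQC 0.11.5, HISAT2 2.0.4 on mm10, Cufflinks 2.1.1, Cuffdiff and edgeR 3.16.2, and deposited a table of CPM per gene. The libraries were made with a stranded kit, and the strand setting of the counting is not given in the sources used here. Low CPM values stood on steps of 1 read, from which depth was read, but only 94.3% to 99.3% of them were whole within 0.02 reads, so no count test was run. Genes with CPM of 1 or more in at least 3 of 26 libraries were kept, 14438 of 23279. CPM were rescaled by a trimmed mean of log ratios (30% of ratios and 5% of intensities trimmed), 0.5 was added, and log2 values of all 9 groups were fitted together with limma 3.58.1 in R 4.3.3, with a variance trend and robust estimation, giving 14 contrasts with Benjamini-Hochberg adjustment over all genes tested and a threshold of 0.05. Exact intervals of read ratios are at 95%. Figures came from matplotlib 3.10.9 and tables from pandas 2.3.3 and numpy 2.4.6 in Python 3.11.15, and the fit was tested on simulated data.

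The members and lists were chosen with earlier results of these data known. Members called at 2-fold or more in ES-LB against limb buds, together, by type or by stage, or between ES-HLB and ES-FLB, and the highest member of each cluster were given with values by library, pooled limb buds as lowest, median and highest. Genes of the 2 further lists were named where called at 2-fold or more. Replicate numbers occur in all groups, but the correlation of same-numbered libraries' deviations was -0.0888 to 0.126 over 33 pairs and over 0.1 for every pair in 0 of 12 comparisons, so the numbers were not taken to pair libraries. Alternatives were other scalings, pseudocounts, filters, thresholds, limma settings, a replicate block, fits of the compared groups alone, the left-out library included and each library left out in turn.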

Additional observations from a re-analysis of the deposited data

Results flagged for a closer look

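10 members differed in their hindlimb against forelimb difference between culture and early buds, tested as an interaction with limma. Values are the log2 difference in culture minus that in buds. By the study's text the early HLBs were older than the early FLBs, so that limb type and stage cannot be told apart in the bud values. Phlda2 stood at 2.41 (1.06 in culture, -1.35 in buds, adjusted p = 3.02e-05), with levels near the floor of detection in ES-FLB. Zim1 stood at 1.21 (adjusted p = 0.000385) and Peg3, its neighbour, at 0.54 (adjusted p = 0.00281). Peg10 stood at 0.74 (adjusted p = 0.00912), Ppp1r9a at 0.67 (adjusted p = 0.000476) and Sgce, of the same cluster, at -0.95 (adjusted p = 5.68e-08). Cdkn1c stood at -0.86 (adjusted p = 2.21e-06), Grb10 at -0.90 (adjusted p = 0.000712), Mest at 0.42 (adjusted p = 0.000351) and Slc38a4 at 0.42 (adjusted p = 0.00806). The share of all genes tested that passed was 20.1%, against 10 of 40 members.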

How the results depend on the processing

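The 24 members that differed by 2-fold or more between ES-LB and limb buds passed with the same sign in all 672 refits, which covered other scalings, pseudocounts, filters, limma settings, the stricter threshold, the replicate block and each library left out. Over all comparisons 3086 of 3093 refits of 2-fold differences kept the call, 7 lost it and 0 reversed. Counts of members called between limb types and stages were less stable, and the cause was not tested. Between ES-HLB and ES-FLB 12 members were called in the fit of all groups, 20 with only the groups compared, 3 at an adjusted p below 0.001 and 6 to 10 with 1 library left out. Between early HLBs and FLBs the count was 12, and 7 with only the groups compared, 4 at 0.001 and 8 to 13 with 1 library left out. Between E10.5 HLBs and FLBs it was 9, and 18 with only the groups compared, 2 at 0.001 and 3 to 7 with 1 library left out, where a lone HLB library is assumed to vary like the other groups. Between E10.5 and early HLBs it was 17, and 9 at 0.001 and 11 to 17 with 1 library left out. Without further scaling, CPM as deposited moved the median of all genes by 0.136 between ES-LB and limb buds, and Tssc4 in ES-FLB against early FLB changed sign to 0.0656 (adjusted p = 0.363). The log2 ratio of Igf2r to Airn changed sign to 0.16 with a pseudocount of 2. The replicate block gave 37 members called between ES-LB and limb buds in place of 36 and 12 between ES-HLB and ES-FLB, moved no count of calls by over 1.5 times, and ended the calls of Meg3 between stages in FLBs (adjusted p = 0.0569), of Nnat between stages in HLBs (adjusted p = 0.059), of Peg3 between E10.5 HLBs and FLBs (adjusted p = 0.0662) and of Cd81 in TB (adjusted p = 0.0514). Alternatives that needed read counts were not run. Depth limits Kcnq1, Rtl1, Phlda2 and Nespas, which lay near 3 reads in some libraries. It also limits genes of the 2 further lists such as Dppa3, Dnmt3l, Qpct and Th.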

Other observations

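Replicate 2 of the E10.5 HLBs, left out above, had 19 members with a value. Of genes that exceeded 2 CPM in replicates 1 and 3, it listed 99.6% to 100% at 0 on chromosomes 5 to 9, X and Y and 20.3% on chromosome 4. On a scaling over genes with a value in that library, it held 1606 of Grb10, between 1564 and 1619 in the other replicates, 200.7 of Dlk1 against 154 and 165, 57.6 of Meg3 against 47.0 and 50.9, and 861.6 of Nnat against 881.9 and 881.6. Several other members also lay outside the range of both replicates, such as Cobl at 1.26 against 0.919 and 0.536 and Trappc9 at 26.9 against 29.0 and 33.6.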
